A study of Mus musculus with 36 samples.

Results

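Most microRNAs (miRNAs) are cut from their primary transcripts by the nuclear enzyme Drosha. The 6 mature miRNAs described here were listed by name as products of 4 hairpins that bypass Drosha: both arms of the mirtron miR-877 (mmu-miR-877-5p and mmu-miR-877-3p), mmu-miR-320-3p and mmu-miR-484 from capped or short-hairpin transcripts, and both arms of miR-1839 (mmu-miR-1839-5p and mmu-miR-1839-3p), listed as derived from a small nucleolar RNA. The prefix mmu, for mouse, is left out below. They are 6 of the 1966 mature miRNA names counted, and each had 1 entry. They were measured by small RNA sequencing of CD4+ TCRb+ T cells sorted from the spleen of C57BL/6J mice, in 36 libraries. In the first experiment, cells of AGO134-/- mice, which lack Argonaute 1, 3 and 4, were compared with wild-type (WT) cells as naive cells (4 and 4 libraries), after 7 days of T helper 2 (Th2) culture (4 and 4) and after 14 days (3 and 3). In the second, CD4Cre;R26LSLeYFP;AGO2f/f cells (AGO2 knockout) were compared with CD4Cre;R26LSLeYFP cells (Cre) as naive cells (4 and 3) and as Th2 cells (4 and 3), so that both sides carried the Cre driven by the CD4 gene and the reporter allele. For these Th2 cells the sample labels give 5 days of culture, and the series text gives 7. No age or sex is given, and the labels do not say whether libraries of a group came from separate mice, so p-values measure the spread between these libraries. Argonaute mRNAs are not read by this assay, so the genotypes could not be checked against the data.

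A mirtron is a short intron that the spliceosome excises and that, once its lariat is opened, folds into a hairpin of the size Dicer accepts; no Drosha cut is needed. miR-320 is known as a hairpin made directly by transcription, with a 5′ cap that favours loading of the 3p arm, and miR-484 as another hairpin that starts at a transcription start site. Some small nucleolar RNAs fold so that Dicer can cut miRNA-like pieces from them. Argonaute proteins (AGO1 to AGO4 in mammals) bind one arm of the Dicer product and keep it stable, and AGO2 is the member with slicer activity. Dependence on Drosha or Dicer was not measured in these cells.

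Mature sequences of 4 of the 6 members were found in the RefSeq miRNA table (GRCm38.p6) and are shown because both arms of miR-877 are compared below; capitals mark the seed, bases 2 to 8 from the 5′ end, with which a miRNA pairs to its targets.
miR-877-5p: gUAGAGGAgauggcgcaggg
miR-877-3p: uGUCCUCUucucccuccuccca
miR-484: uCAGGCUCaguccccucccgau
miR-1839-5p: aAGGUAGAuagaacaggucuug
No seed was shared among these 4, and no other mature miRNA of the table carried any of them. The guanine and cytosine share was 65.0% in miR-877-5p, 59.1% in miR-877-3p, 63.6% in miR-484 and 40.9% in miR-1839-5p. miR-320-3p and miR-1839-3p are named only.

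The hairpin of miR-877 shows the mirtron structure, and its capitals mark the first and last pair of bases, the splice donor and acceptor letters GU and AG.
miR-877 hairpin: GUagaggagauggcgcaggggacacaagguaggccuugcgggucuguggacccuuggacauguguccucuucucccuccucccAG
It is the reverse-strand sequence of chr17:35960730-35960814 and is 85 bases long. Its ends coincided with those of an intron of Abcf1, a gene for an ATP-binding cassette protein that acts in translation initiation, in 1 annotated transcript (GENCODE M21). miR-877-5p started at the first base of the intron, and miR-877-3p ended 1 base before its last. Of the 22 bases of miR-877-3p, 20 were C or U, as in the pyrimidine-rich stretch before a splice acceptor.
The other 3 hairpins were not introns of this kind. Mir484 (chr16:14159626-14159692, forward strand) overlapped an exon of Marf1, which lies on the opposite strand. Mir320 (chr14:70443510-70443591, forward strand) overlapped no other annotated gene. The nearest annotated transcript start of another gene on the same strand lay 13966 bases from the 5′ end of Mir320 and 3649 bases from that of Mir484, so the annotation places no such start at either hairpin. Mir1839 (chr7:81529855-81529981, forward strand) overlapped an exon of the long noncoding RNA gene 2900076A07Rik and no other annotated gene. The annotation thus places no small nucleolar RNA at this hairpin. These are GENCODE M21 intervals; RefSeq gives Mir1839 as chr7:81529916-81529988, a shorter hairpin with another start and end. The counting method is not stated to use strand, so for Mir484 reads of the opposite strand could not be told apart.

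Libraries of the first experiment held 64264 to 273724 miRNA counts and those of the second 596 to 58357. A count of 0 allows up to 3 counts, which is 11 to 46.7 CPM (counts-per-million of a library's miRNA counts) in the first experiment and 51.4 to 5034 CPM in the second; this limit covers counting error only. In the first experiment every knockout library was shallower than every WT library of its stage. The counts were 64264 to 195122 against 196357 to 243748 in naive cells, 125803 to 190976 against 215215 to 273724 at day 7 and 177815 to 238454 against 254369 to 265008 at day 14. The part of depth in the results was not tested. miR-150-5p, a T cell miRNA, was present in every library. miR-223-3p of myeloid cells stood at 0 to 42.7 CPM in the first experiment and at 0 in the second. The 8 markers of other cell types together had 2007 to 3253 CPM in naive knockout and 2099 to 2585 CPM in naive WT libraries, 1703 to 2189.6 CPM in day 7 knockout and 1894 to 2247 CPM in day 7 WT libraries, and 1258 to 1371 CPM in day 14 knockout and 1054 to 1184 CPM in day 14 WT libraries. In the second experiment they had 112 to 543 CPM in AGO2 knockout and 72.9 to 264 CPM in Cre Th2 libraries, and 0 to 599.7 CPM in AGO2 knockout and 376 to 1036 CPM in Cre naive libraries. The day 14 ranges did not overlap, and the part of such cells in the results was not tested. Levels below are CPM after normalisation of library sizes within an experiment (TMM), and an amount is thus set against the rest of the library's miRNAs. In such bulk samples, fewer cells of a type and less RNA per cell cannot be told apart.

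miR-877-5p was the member that fell in AGO134 knockout cells at all 3 stages, and miR-1839-3p fell in naive cells. Tests used the quasi-likelihood method of edgeR on the counts, and a miRNA was called when its p, adjusted by Benjamini and Hochberg over all 382 miRNAs tested, was under 0.05. In naive cells 2 of the 6 members were called, both lower, where 10.2% of all miRNAs tested were called lower and 18.3% in either direction. At day 7, 1 member was called, lower, where 5.76% of all were called lower and 14.4% in either direction. At day 14, 1 member was called, lower, where 10.7% of all were called lower and 19.6% in either direction. The median log2 fold change of the 6 members was -0.59 in naive cells, -0.14 at day 7 and 0.048 at day 14, beside -0.050, -0.015 and 0.0067 for all 382. The direction of the calls as a whole depended on scaling. In naive cells 31 miRNAs were called higher and 39 lower, but 8 higher and 80 lower when scaled by library size alone, with 5 members called lower. Scaled to 9 entries of each library that carry the name STD, which is not explained in the sources used here, 0 were called higher and 204 lower, all 6 members among them. Every library of the knockout lay below every WT library for 3 members in naive cells (10.7% of all), for 3 at day 7 (7.85%) and for 2 at day 14 (19.1%), and above every WT library for 1 at day 7 (12% of all) and 2 at day 14 (18.3%).

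**Figure D1:**
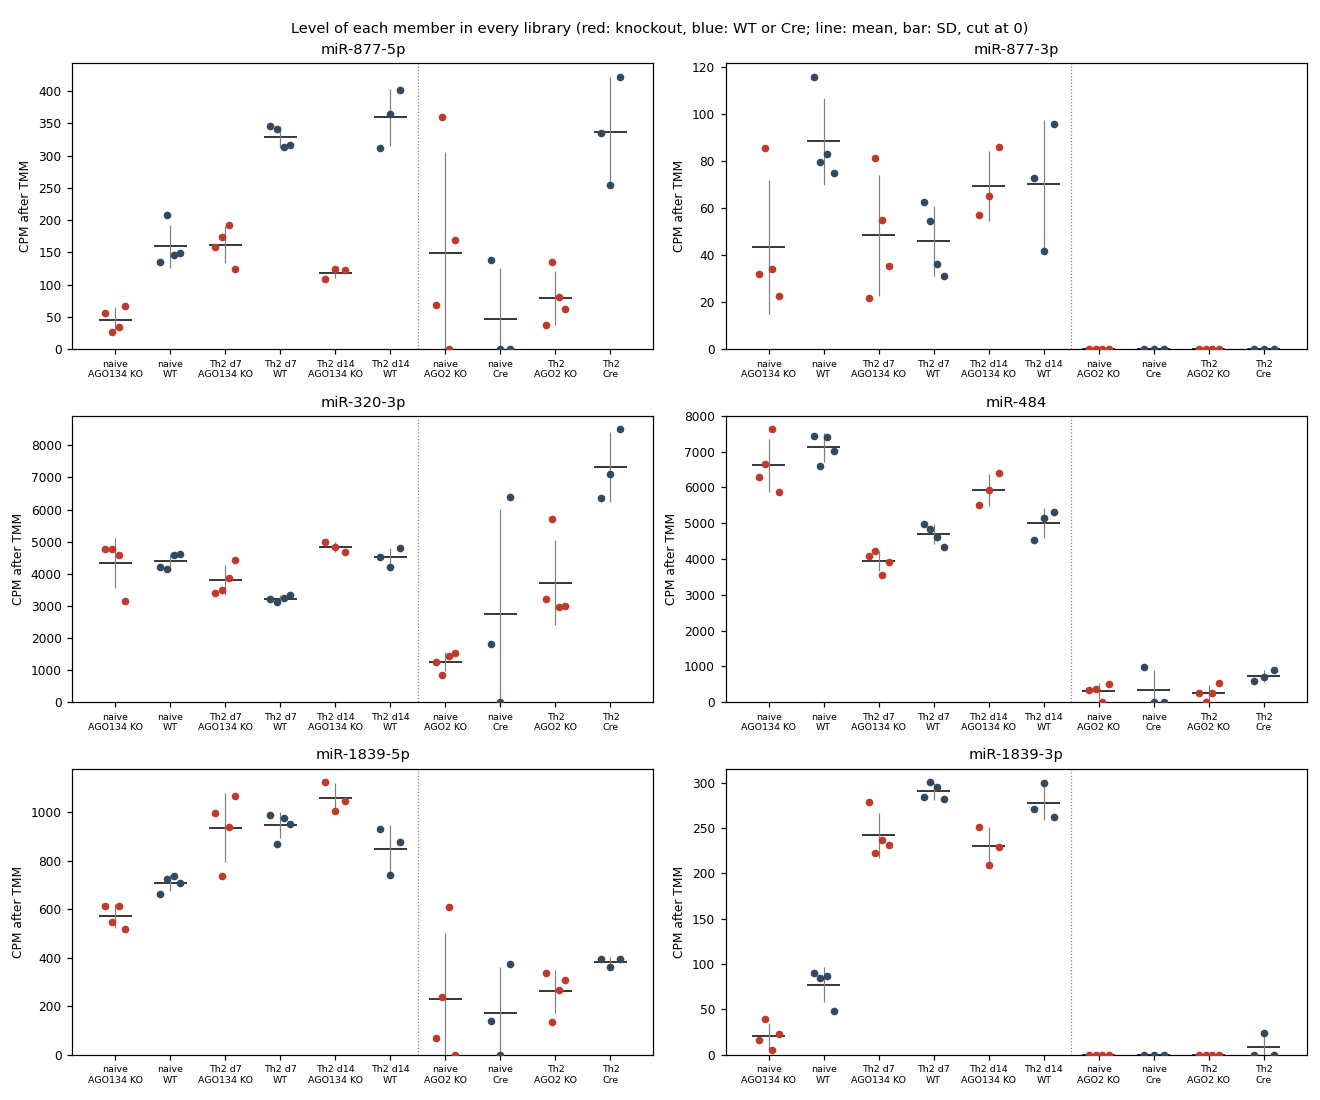
Level of each member in every library, in CPM after TMM, with knockout groups in red left of their control in blue; lines are means and bars SD, and the dotted line separates the experiments, which were normalised separately. miR-877-5p stands lower in AGO134 knockout than in WT libraries at every stage and lower in AGO2 knockout than in Cre Th2 libraries, and its other arm has no counts in the second experiment.

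miR-877-5p, the arm at the 5′ end of the Abcf1 intron, had 55.7, 26.3, 34.1 and 67.7 CPM in the 4 naive knockout libraries, against 134.5, 208, 146 and 149 CPM in the 4 naive WT libraries. The highest knockout library stood below the lowest WT library. The means were 45.9 ± 19.1 CPM in knockout and 159.6 ± 33 CPM in WT cells (SD, n = 4 each) (log2 fold change -1.96, SE 0.28, edgeR adjusted p = 2.21e-05). Only 3 of the 382 miRNAs tested had a lower log2 fold change. These levels rest on 20 counts in the knockout libraries together and 148 in the WT libraries, and the 4 knockout libraries had 3 to 7 counts each.

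After 7 days as Th2 cells, miR-877-5p had 158, 173, 192 and 125 CPM in the knockout libraries, against 347, 342, 313 and 316 CPM in the WT libraries, again with no overlap. The mean fell to 162 ± 28.6 CPM in knockout, against 329 ± 17.3 CPM in WT cells (SD, n = 4 each) (log2 fold change -0.99, SE 0.17, edgeR adjusted p = 0.00067). At day 14 it had 109, 124 and 123 CPM in the 3 knockout libraries, against 312, 364 and 401 CPM in the 3 WT libraries (log2 fold change -1.60, SE 0.20, edgeR adjusted p = 1.07e-06). Both sets of replicates were tight, at 119 ± 8.21 CPM in knockout and 359 ± 44.5 CPM in WT cells (SD, n = 3 each). The call was kept under every alternative setting and without any 1 library at each of the 3 stages, with log2 fold changes of -2.66 to -1.74 in naive cells, -1.60 to -0.91 at day 7 and -2.04 to -1.52 at day 14. The value at the far end came each time from scaling to the STD entries, which moved the median of all miRNAs to -0.77, -0.63 and -0.44 at these stages. With the naive groups alone miR-877-5p passed the count filter only through the WT libraries, where it is high. Before TMM these stood at 143 to 215 CPM, and the naive knockout libraries at 24.0 to 47.2 CPM. The call of that setting is thus no independent support.

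The size of the effect on miR-877-5p was not shown to differ between stages. The effect at day 7 minus that in naive cells was 0.97 (SE 0.34, edgeR adjusted p = 0.133), and the effect at day 14 minus that at day 7 was -0.60 (SE 0.27, edgeR adjusted p = 0.161). Both differences share the day 7 libraries.

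**Figure D2:**
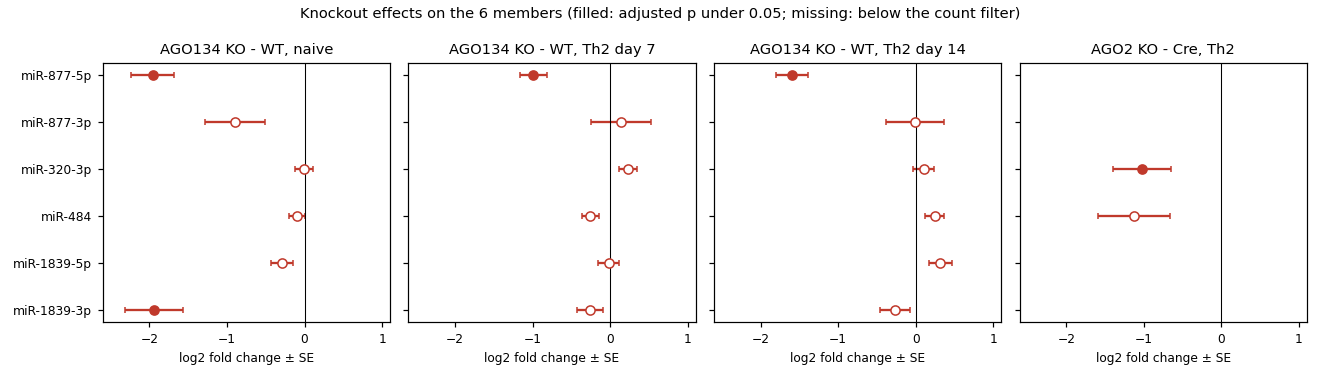
Log2 fold change of each member, knockout minus control, with its SE, for the 3 stages of the AGO134 experiment and the Th2 cells of the AGO2 experiment; filled points have an adjusted p under 0.05, and members without a point were below the count filter. miR-877-5p lies at -1.96, -0.99 and -1.60 in the AGO134 panels, while miR-877-3p lies at -0.89, 0.14 and -0.0062.

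**Figure D3:**
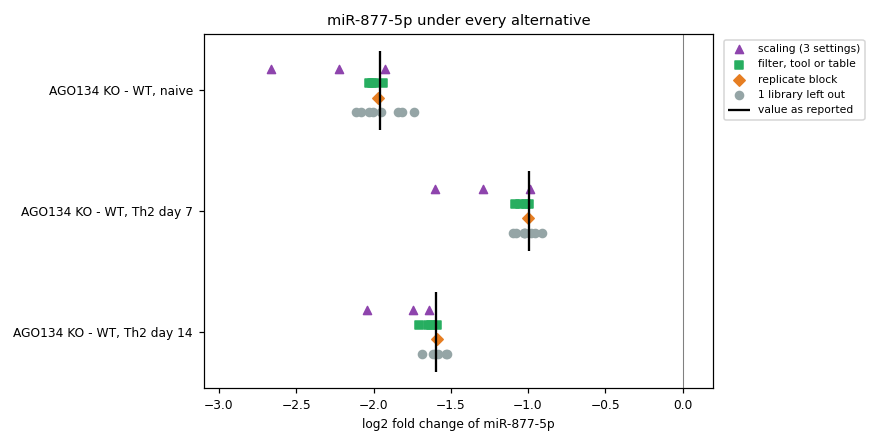
Log2 fold change of miR-877-5p, AGO134 knockout minus WT, at each stage as reported (black line) and under every alternative: 3 other scalings, another filter, tool, set of groups or table, a replicate block, and each library left out in turn. All values lie below 0, between -2.66 and -0.91.

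miR-877-3p, the arm cut from the 3′ end of the same intron, was not called at any stage as reported. It had 31.8, 85.5, 34.1 and 22.6 CPM in naive knockout libraries, against 116, 79.7, 83.0 and 74.7 CPM in naive WT libraries (log2 fold change -0.89, SE 0.39, edgeR adjusted p = 0.117). Knockout library 2 lay among the WT libraries, and the other 3 lay below them; without library 2 the arm was called lower (-1.46, edgeR adjusted p = 0.0286), as it was when scaled by library size alone (-1.16, edgeR adjusted p = 0.0346) or to the STD entries (-1.61, edgeR adjusted p = 0.00365). At day 7 the libraries overlapped, with 21.8, 81.3, 54.9 and 35.6 CPM in knockout and 62.6, 54.3, 36.1 and 31.0 CPM in WT cells (log2 fold change 0.14, SE 0.38, edgeR adjusted p = 0.895). At day 14 the levels were 56.9, 65.2 and 85.9 CPM in knockout and 72.9, 41.7 and 95.8 CPM in WT cells (log2 fold change -0.0062, SE 0.37, edgeR adjusted p = 0.998). The arm was counted 24 and 84 times in all naive knockout and WT libraries, 33 and 54 times at day 7 and 43 and 59 times at day 14, and the SE of its log2 fold change, 0.39, 0.38 and 0.37 at the 3 stages, was wider than the 0.28, 0.17 and 0.20 of miR-877-5p.

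The balance of the 2 arms needs no scaling between libraries and was taken as the log2 ratio of 5p over 3p counts, with 0.5 added to each. For miR-877 it was 0.74, -1.58, 0 and 1.22 in naive knockout libraries, against 0.21, 1.36, 0.80 and 0.97 in naive WT libraries, a difference of -0.74 in means, which was -0.18 without knockout library 2. At day 7 it was 2.71, 1.07, 1.76 and 1.69 in knockout libraries, against 2.43, 2.62, 3.06 and 3.29 in WT libraries, a difference of -1.04, and 1 knockout library lay among the WT libraries. At day 14 it was 0.91, 0.89 and 0.50 in knockout libraries, against 2.07, 3.07 and 2.05 in WT libraries, a difference of -1.63 with no overlap. Two-sided exact permutation tests gave p = 0.314 in naive cells (n = 4 each), 0.0857 at day 7 (n = 4 each) and 0.1 at day 14 (n = 3 each, where 0.1 is the smallest p that 3 against 3 libraries allow). None passed adjustment over the 6 arm tests, with adjusted values of 0.314, 0.137 and 0.137. As pooled shares, the 3p arm made up 54.5% of miR-877 counts in naive knockout cells (exact Clopper-Pearson 95% interval 38.8 to 69.6) and 36.2% in naive WT cells (30.0 to 42.8). The shares were 23.1% (16.4 to 30.9) in knockout and 12% (9.14 to 15.4) in WT cells at day 7, and 37.4% (28.5 to 46.9) in knockout and 16.5% (12.8 to 20.7) in WT cells at day 14. These intervals cover counting error only and leave out the spread between libraries, so intervals that do not overlap are no test of the arm balance.

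**Figure D4:**
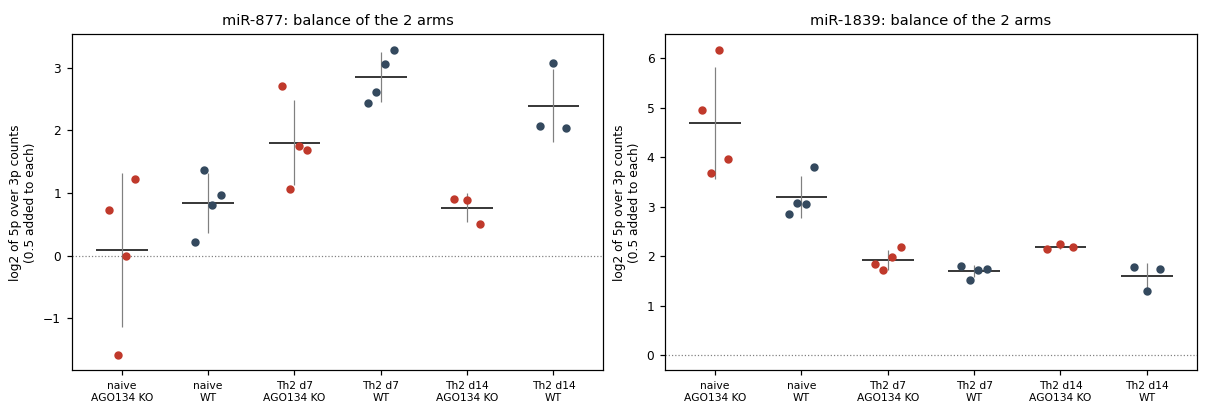
Log2 ratio of 5p over 3p counts (0.5 added to each) per library for miR-877 and miR-1839, knockout in red left of WT in blue, with means (lines) and SD (bars). For miR-877 the knockout means lie below the WT means at each stage, with differences of -0.74 (-0.18 without knockout library 2), -1.04 and -1.63, and for miR-1839 they lie above, by 1.5, 0.23 and 0.59; none of the 6 differences passed the adjusted exact test.

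In the hairpin of miR-1839, as in that of miR-877, the 3p arm was the rarer in WT cells. This arm, miR-1839-3p, had 15.9, 39.5, 5.68 and 22.6 CPM in naive knockout libraries, against 89.7, 84.1, 87.0 and 48.0 CPM in naive WT libraries. No knockout library reached the lowest WT library, although WT library 4 lay well below the other 3. The mean fell to 20.9 ± 14.2 CPM in knockout, against 77.2 ± 19.6 CPM in WT cells (SD, n = 4 each) (log2 fold change -1.94, SE 0.37, edgeR adjusted p = 0.000691). This rests on 10 counts in the knockout libraries together and 74 in the WT libraries, and the fold change ran from -2.68 to -1.48 when each library was left out in turn, with the call kept each time. In Th2 cells miR-1839-3p had 278, 222, 236 and 231 CPM in knockout and 284, 300.4, 295 and 282 CPM in WT libraries at day 7 (log2 fold change -0.26, SE 0.17, edgeR adjusted p = 0.384). At day 14 the values were 251, 209 and 229 CPM in knockout and 271, 299 and 263 CPM in WT libraries (log2 fold change -0.26, SE 0.19, edgeR adjusted p = 0.353). The libraries did not overlap at either time, but the differences were small and not called.

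The effect on miR-1839-3p differed between naive and day 7 cells, by 1.68 (SE 0.42, edgeR adjusted p = 0.0306); 2.36% of the 382 miRNAs were called in this comparison of effects and 1.83% were called higher, and miR-1839-3p was the 1 member among them. The call was lost with a replicate block (1.66, edgeR adjusted p = 0.0641), library size alone (1.64, edgeR adjusted p = 0.0733), STD scaling (1.76, edgeR adjusted p = 0.183) or no filter (1.63, edgeR adjusted p = 0.109). It was also lost, with differences of 1.22 to 1.65, without any 1 of naive knockout library 1, 3 or 4, naive WT library 1 or 2, day 7 knockout library 1, or day 7 WT library 3 or 4.

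miR-1839-5p, the more abundant arm, was not called. It had 612, 546, 613 and 519 CPM in naive knockout libraries, against 661, 726, 735 and 709.8 CPM in naive WT libraries (log2 fold change -0.29, SE 0.14, edgeR adjusted p = 0.17). At day 7 the means were 936 ± 142 CPM in knockout and 946 ± 53.8 CPM in WT cells (SD, n = 4 each; edgeR adjusted p = 0.977). At day 14 it had 1124, 1004 and 1047 CPM in knockout libraries, against 930.3, 743 and 876 CPM in WT libraries (log2 fold change 0.32, SE 0.15, edgeR adjusted p = 0.129). The knockout libraries thus lay below WT in naive cells and above WT at day 14, within differences that did not pass the test, and with STD scaling the day 14 value turned to -0.13. The log2 ratio of 5p over 3p counts was 4.95, 3.68, 6.18 and 3.97 in naive knockout libraries, against 2.86, 3.08, 3.05 and 3.81 in naive WT libraries, a difference of 1.5 (two-sided exact permutation p = 0.0571, adjusted 0.137, n = 4 each). The difference was 0.23 at day 7 (exact p = 0.114, adjusted 0.137, n = 4 each) and 0.59 at day 14 (exact p = 0.1, the smallest possible, adjusted 0.137, n = 3 each). The 3p arm made up 3.32% of miR-1839 counts in naive knockout cells (exact 95% interval 1.60 to 6.02) and 10.1% in naive WT cells (8 to 12.5), where the intervals cover counting error only.

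The other 2 members, miR-320-3p and miR-484, are the abundant ones, and neither was called in AGO134 knockout cells. miR-320-3p, from a hairpin known for its 5′ cap, had 4773, 4780.1, 4581 and 3158 CPM in naive knockout libraries, against 4217, 4144, 4574 and 4600.1 CPM in naive WT libraries (log2 fold change -0.0065, SE 0.12, edgeR adjusted p = 0.985). Knockout library 4, the shallowest of the 4, stood apart from the other 3. At day 7 it had 3395, 3479.5, 3877 and 4422 CPM in knockout libraries, against 3206, 3109.8, 3253 and 3337 CPM in WT libraries (log2 fold change 0.23, SE 0.12, edgeR adjusted p = 0.225). The day 7 knockout libraries all lay above WT, but the difference was not called with edgeR. With DESeq2 it was called higher (0.24, DESeq2 adjusted p = 0.0499), and in edgeR with library size or STD scaling it turned to -0.0764 and -0.40. At day 14 the means were 4839 ± 163 CPM in knockout and 4507 ± 294 CPM in WT cells (SD, n = 3 each; edgeR adjusted p = 0.643).

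miR-484, whose hairpin lies opposite an exon of Marf1, had 6299.9, 6661, 7624 and 5887 CPM in naive knockout libraries, against 7441, 6606, 7412 and 7018 CPM in naive WT libraries (log2 fold change -0.10, SE 0.11, edgeR adjusted p = 0.541). At day 7 it had 4077, 4211, 3548 and 3915 CPM in knockout libraries, against 4993, 4845, 4615 and 4337 CPM in WT libraries (log2 fold change -0.25, SE 0.11, edgeR adjusted p = 0.12). At day 14 it had 5497, 5919.9 and 6394 CPM in knockout libraries, against 4544, 5154 and 5326 CPM in WT libraries (log2 fold change 0.25, SE 0.12, edgeR adjusted p = 0.154). The knockout libraries lay below all WT libraries at day 7 and above them all at day 14, neither difference was called by itself, and with STD scaling the day 14 value turned to -0.20. The effect at day 14 minus that at day 7 was 0.50 (SE 0.16, edgeR adjusted p = 0.0407), and miR-484 was the 1 member called in this comparison, where 12% of all 382 miRNAs were called and 5.5% were called higher. That call was lost with a replicate block (0.52, edgeR adjusted p = 0.0886), DESeq2 size factors (0.44, edgeR adjusted p = 0.0959), STD scaling (0.67, edgeR adjusted p = 0.322), no filter (0.56, edgeR adjusted p = 0.208) or all locus entries (0.42, edgeR adjusted p = 0.116). It was also lost, with differences of 0.48 to 0.54, without day 14 knockout library 4, day 14 WT library 1, day 7 knockout library 3 or 4, or day 7 WT library 1 or 2.

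In the AGO2 experiment miR-320-3p and miR-484 were the members that passed the count filter over both stages, among 98 miRNAs tested. In Th2 cells 1 of these 2 members was called, lower, where 25.5% of the 98 were called lower and 44.9% in either direction. miR-320-3p had 3206, 5697, 2977 and 2995 CPM in AGO2 knockout Th2 libraries D to G, against 6358, 7096 and 8498 CPM in Cre Th2 libraries A to C. The means were 3719 ± 1323 CPM in AGO2 knockout (SD, n = 4) and 7317 ± 1087 CPM in Cre cells (SD, n = 3) (log2 fold change -1.02, SE 0.37, edgeR adjusted p = 0.0293). The groups did not overlap, and 32.7% of the 98 lay wholly below in knockout cells, with knockout library E the nearest to Cre. The call was lost without knockout library D (-0.86, edgeR adjusted p = 0.112), F (-0.83, edgeR adjusted p = 0.135) or G (-0.83, edgeR adjusted p = 0.130), and kept without any other 1 of the Th2 libraries. miR-484 had 261, 0, 241 and 537 CPM in AGO2 knockout Th2 libraries, against 583, 713 and 897 CPM in Cre Th2 libraries (log2 fold change -1.13, SE 0.46, edgeR adjusted p = 0.0509). It had 42 counts in knockout and 133 in Cre libraries. Of 14 alternatives, miR-484 passed the count filter in 8 and was called lower in all 8, with log2 fold changes of -2.75 to -0.99 and edgeR or DESeq2 adjusted p of 2.30e-05 to 0.0472. Before TMM it had 810 CPM in naive Cre library A and 1011 and 854 CPM in Cre Th2 libraries B and C. No AGO2 knockout library stood above 639 CPM. In the fit as reported miR-484 passed the filter through these Cre libraries only, where it is high. The 8 calls share libraries, include the fit with no filter and give no independent support.

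miR-877-5p lay under that filter, and its counts are given. It had 1, 1, 3 and 3 counts in the AGO2 knockout Th2 libraries, which held 11218 to 40720 miRNA counts, against 23, 21 and 16 in the Cre Th2 libraries, which held 39794 to 58357. Per miRNA counted, the pooled ratio of AGO2 knockout to Cre was 0.179 (exact 95% interval 0.0738 to 0.375, counting error only). Every knockout library, at 37.3, 136, 80.5 and 62.0 CPM, lay below every Cre library, at 335, 254 and 422 CPM. Where the filter was dropped the log2 fold change was -2.44 (edgeR adjusted p = 0.000175), and where the Th2 groups were fitted alone it was -2.19 (edgeR adjusted p = 0.000366). With the Th2 groups alone miR-877-5p passed the filter only through the Cre libraries, where it is high. Before TMM these stood at 412, 360 and 402 CPM, and the knockout libraries at 38.4 to 89.1 CPM. That p is thus no independent support. miR-877-3p had 0 counts in all 14 libraries of the experiment. In Cre Th2 cells 0 of 60 miR-877 counts were of the 3p arm, which allows a share of up to 5.96% (exact 95% interval, counting error only). The share was 12% in day 7 WT cells of the first experiment. A lower 3p share was not particular to miR-877, since that of miR-1839 was 2.70% in Cre Th2 and 23.5% in day 7 WT cells. Experiment, genotype and days of culture cannot be told apart in these comparisons. miR-1839-5p had 35 counts in AGO2 knockout Th2 libraries and 72 in Cre Th2 libraries, a pooled ratio of 0.652 (exact 95% interval 0.422 to 0.989, counting error only). Its log2 fold change of -0.66 with the filter dropped was not called (edgeR adjusted p = 0.422). miR-1839-3p had 0 counts in the AGO2 knockout Th2 libraries and 2 in the Cre Th2 libraries. Arm ratios were not tested in this experiment for lack of 3p counts.

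In naive cells of the AGO2 experiment 0 of the 2 tested members were called by edgeR or by DESeq2, where 9.18% of the 98 miRNAs were called; 1, miR-320-3p, had an unadjusted edgeR p under 0.05. miR-320-3p had 1245, 839.6, 1421 and 1531 CPM in naive AGO2 knockout libraries, against 1801, 0 and 6394 CPM in naive Cre libraries (log2 fold change -1.28, SE 0.54, edgeR adjusted p = 0.147). The Cre value of 0 is that of library B, which held 596 miRNA counts. miR-484 had 346, 359.8, 0 and 510.2 CPM in naive AGO2 knockout and 969.8, 0 and 0 CPM in naive Cre libraries (edgeR adjusted p = 0.632), and miR-877-5p 5 counts in naive AGO2 knockout and 1 in naive Cre libraries. When scaled by library size alone miR-320-3p was called (log2 fold change -1.87, edgeR adjusted p = 0.0184). Per miRNA counted, its pooled ratio of naive AGO2 knockout to naive Cre was 0.352 (exact 95% interval 0.214 to 0.584, counting error only), from 41 counts in knockout and 30 in Cre libraries. Of the 30, 17 were in Cre library C, which held 2156 miRNA counts. The entry miR-5099 took 48.0% to 65.8% of miRNA counts in naive AGO2 knockout and 18.4% to 52.4% in naive Cre libraries. With miR-5099 left out of the total, which was chosen after seeing the data, the ratio was 0.452. The part of miR-5099 in the call was not tested.

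The AGO2 effect in Th2 cells was set against the AGO134 effect at day 7 in 1 fit of all 36 libraries. The effect on miR-320-3p was lower under AGO2 loss by -1.27 (SE 0.26, edgeR adjusted p = 0.000174); it was the 1 member called among 376 miRNAs tested, of which 23.1% were called and 13% were called lower. The difference was -1.19 for miR-877-5p (SE 0.50, edgeR adjusted p = 0.084) and -0.74 for miR-484 (SE 0.37, edgeR adjusted p = 0.147), neither called. This fit takes 1 estimate of the spread of a miRNA over both experiments. For miR-320-3p its SE of 0.26 is below the 0.37 of the AGO2 effect alone in the fit of its own experiment. The p of this difference may thus understate the spread between the AGO2 libraries. The experiment and the deleted gene cannot be told apart here, and miR-150-5p, high in naive T cells, stood at 4957 to 9574 CPM in AGO2 knockout Th2 libraries against 604 to 715 CPM in Cre Th2 libraries, a difference whose part in these results was not tested. Summed over the 6 members, the share of miRNA counts was 0.361% to 0.464% in AGO2 knockout Th2 libraries and 0.943% to 1.20% in Cre Th2 libraries, 0.850% to 0.895% in AGO134 knockout and 1.09% to 1.17% in WT libraries at day 7, and 0.668% to 1.16% in AGO134 knockout and 1.20% to 1.41% in WT naive libraries. At day 14 it was 1.05% to 1.29% in AGO134 knockout and 1.12% to 1.26% in WT libraries, which overlapped. The sum mostly restates the abundant members. In Th2 cells of the second experiment it was mainly miR-320-3p, with 384 counts in AGO2 knockout and 1345 in Cre libraries, where miR-484 had 42 and 133. In the first experiment it was mainly miR-484 and miR-320-3p. One entry, miR-5099, took 11.8% to 52.3% of miRNA counts in AGO2 knockout and 9.85% to 13.5% in Cre Th2 libraries, the highest in knockout library E, and the STD entries took 52.8% to 64.8% of all counts in AGO2 knockout and 32.0% to 38.5% in Cre Th2 libraries. With miR-5099 left out of the total, which was chosen after seeing the data, the members' share was 0.459% to 0.822% in AGO2 knockout and 1.09% to 1.33% in Cre Th2 libraries, and the pooled ratio of AGO2 knockout to Cre was 0.198 for miR-877-5p and 0.721 for miR-1839-5p. The part of the STD share in these results was not tested.

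In WT cells the members moved in both directions between the naive and the day 7 Th2 stage. All 6 were called between day 7 and naive WT cells, where 76.4% of the 382 miRNAs were called: 3 rose, where 39.5% of all rose, and 3 fell, where 36.9% of all fell. miR-877-5p rose to 329 ± 17.3 CPM at day 7, against 159.6 ± 33 CPM in naive WT cells (SD, n = 4 each) (log2 fold change 1.05, SE 0.17, edgeR adjusted p = 1.75e-06), while miR-877-3p fell to 46.0 ± 14.9 CPM at day 7, against 88.3 ± 18.6 CPM in naive WT cells (log2 fold change -0.98, SE 0.32, edgeR adjusted p = 0.00699). Both arms of miR-1839 rose, by 1.88 for miR-1839-3p and 0.42 for miR-1839-5p on the log2 scale (edgeR adjusted p = 6.18e-10 and 0.00447). miR-320-3p changed by -0.44 and miR-484 by -0.60 on the log2 scale (edgeR adjusted p = 0.00127 and 8.62e-06). The call of miR-320-3p was lost when scaled by library size alone (-0.26, edgeR adjusted p = 0.104) or with no filter (-0.35, edgeR adjusted p = 0.067). Under scaling to the STD entries these last 2 turned to 0.18 and 0.0086, neither called, with the median of all miRNAs at 0.73 in place of 0.11; miR-877-5p, at 1.66, and both miR-1839 arms kept their call, and miR-877-3p, at -0.38, lost it. In WT cells the 3p share of miR-877 counts was 36.2% in naive cells, 12% at day 7 and 16.5% at day 14, and that of miR-1839 counts was 10.1%, 23.5% and 24.5%.

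Between day 14 and day 7 WT cells 1 of the 6 members was called, where 50% of the 382 miRNAs were called and 25.1% were called higher: miR-320-3p was higher at day 14, at 4507 ± 294 CPM (SD, n = 3), against 3227 ± 94.8 CPM at day 7 (SD, n = 4) (log2 fold change 0.48, SE 0.13, edgeR adjusted p = 0.00204), a call lost when scaled by library size alone (0.34) or with STD scaling (0.29). In Cre cells 1 of 2 tested members was called between Th2 and naive cells, where 56.1% of 98 miRNAs were called and 36.7% were called higher: miR-320-3p was higher in Th2 cells (log2 fold change 1.28, SE 0.49, edgeR adjusted p = 0.0306). That call was lost without naive Cre library A (0.81, edgeR adjusted p = 0.258) or B (0.89, edgeR adjusted p = 0.143), and without B and C together the log2 fold change was 1.97 (edgeR adjusted p = 0.0082). miR-484 did not pass (edgeR adjusted p = 0.8).

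The levels of the members in WT cells spanned a wide range. In naive WT cells miR-484 was highest at 7119 ± 393 CPM, followed by miR-320-3p at 4384 ± 237 CPM, miR-1839-5p at 708 ± 33 CPM, miR-877-5p at 159.6 ± 33 CPM, miR-877-3p at 88.3 ± 18.6 CPM and miR-1839-3p at 77.2 ± 19.6 CPM (SD, n = 4). The last 2 did not differ beyond their spread. At day 7 the order of the rarer arms was the other way, with miR-1839-3p at 290.3 ± 8.98 CPM and miR-877-3p at 46.0 ± 14.9 CPM (SD, n = 4 each), and at day 14 miR-1839-3p stood at 278 ± 19.3 CPM and miR-877-3p at 70.1 ± 27.2 CPM (SD, n = 3 each). Mature miRNAs are of nearly equal length, but ligation and counting efficiency differ between sequences, so the order is of counts.

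By Pearson's r of log2 CPM over the 22 libraries of the AGO134 experiment, given as a description since the libraries share groups, miR-877-5p was most like miR-298-5p (0.86) and miR-3068-3p (0.85) among the 381 other miRNAs tested, and its r with its own other arm was 0.13. miR-877-3p was most like miR-18b-3p (0.73) and miR-1981-3p (0.60). miR-1839-3p was most like miR-301b-3p (0.94) and miR-3473d (0.93), and miR-1839-5p most like miR-222-3p (0.88) and miR-1306-3p (0.88). The 2 arms of miR-1839 had an r of 0.83 with each other. miR-484 was most like miR-151-3p (0.94) and let-7b-3p (0.94), and miR-320-3p most like miR-340-3p (0.81) and miR-125a-5p (0.78).

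Of 12 other miRNAs known to bypass a step of the usual pathway, 10 mirtron arms, the tRNA-derived miR-1983 and the Dicer-independent miR-451a, 3 passed the filter in the AGO134 experiment. With edgeR 0 of the 3 were called in naive or day 7 knockout cells, where 1 and 0 had an unadjusted p under 0.05 (111 and 95 of all 382 did), and 2 were called lower at day 14, where 10.7% of all 382 were. miR-1983 had 313 ± 59.1 CPM in day 14 knockout and 657 ± 50.8 CPM in day 14 WT cells (SD, n = 3 each; log2 fold change -1.07, SE 0.19, edgeR adjusted p = 0.000119), and in WT cells it was higher by 4.01 on the log2 scale at day 7 than in naive cells (edgeR adjusted p = 1.53e-15). miR-1981-3p, an arm of another mirtron, had 131 ± 49.8 CPM in day 14 knockout and 210.1 ± 10.6 CPM in day 14 WT cells (SD, n = 3 each; log2 fold change -0.64, SE 0.23, edgeR adjusted p = 0.0432). miR-1981-5p was not called at any stage, with edgeR adjusted p of 0.316 in naive cells, 0.481 at day 7 and 0.244 at day 14. miR-451a had 3 counts in naive WT libraries and 0 in every other group.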

How the data were processed

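The authors deposited whole-number read counts per mature miRNA entry for 36 small RNA libraries, per the file headers, with GRCm38 as the genome build per the submitters' processing notes. Not given in the sources used here were the aligner, the counter, the miRNA release and whether molecular identifiers served; the labels state single-end and the series text paired-end reads. Of the 2119 entries, 9 named STD name no miRNA; they took 32.0% to 86.7% of a library's counts and stayed out of library sizes and tests. For a miRNA with several locus entries the one with the highest total was used, which left 1966 names.

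Counts were fitted per experiment with edgeR 4.0.16 (R 4.3.3): TMM scaling, filterByExpr with a minimum of 10 counts, 1 mean per group and Benjamini-Hochberg adjustment over all miRNAs tested. The SE is the one implied by the test statistic. Effects of both knockouts were compared in 1 fit of all 36 libraries. Arm ratios were tested by exact permutation (scipy 1.17.1). Replicates of a group were compared by chi-square; none of the 48 pairs agreed within sampling noise. The fits were tested on counts simulated with the same spread for all miRNAs. Log2 changes of 1 were called in 96.6% of cases for naive and 78.9% for day 14 AGO134 knockout, and in 52.9% for AGO2 knockout Th2 cells. For changes of 2 these were 100%, 94.4% and 100%. False calls numbered 7 of 298, 6 of 286 and 1 of 60 unchanged miRNAs. These shares are over all miRNAs tested, and rare miRNAs were not taken apart. In naive AGO134 knockout against WT cells the SE of miR-877-3p was 0.39. A member not called can thus still have changed by 1, above all in the AGO2 experiment and among the rare members. Alternatives were DESeq2 1.42.0 and its size factors, library size only, scaling to the STD entries, no filter, the groups of a comparison alone, a replicate block and leaving out libraries; using all locus entries, and leaving miR-5099 out of the total of summed ratios, were added after seeing the data. The members, lists and tests were chosen with earlier results of these data known. Named miRNAs are the 6 members, those of a list of 12 other noncanonical miRNAs with a mean of 10 counts or more per library in a group (miR-451a, below it, was named after its values were seen), and the 2 most correlated miRNAs of each member. Sequences came from the RefSeq table (GRCm38.p6) and gene overlaps from GENCODE M21.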

Additional observations from a re-analysis of the deposited data

Results flagged for a closer look

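In 37 sets of 4 libraries, 29 of a member's levels and 8 of an arm ratio in 1 group, 3 had a library whose gap to its nearest neighbour was large for the range of its group (Dixon's test at 95%), where chance gives about 1 in 20. miR-320-3p stood at 3158 CPM in naive AGO134 knockout library 4, below the other 3. miR-320-3p stood at 5697 CPM in AGO2 knockout Th2 library E, above the other 3. Before TMM library E stood at 3744 CPM, beside 3302, 3013 and 3561 CPM in libraries D, F and G, so the gap appeared only after TMM. miR-5099 took 52.3% of the miRNA counts of library E. miR-1839-3p stood at 48.0 CPM in naive WT library 4, below the other 3.

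The effects of a knockout on 3 members differed between stages or experiments in an edgeR test of the difference itself as reported, 2 of them with calls that depended on the setting. The AGO134 effect on miR-1839-3p at day 7 minus that in naive cells was 1.68 on the log2 scale (edgeR adjusted p = 0.0306), and it was past the threshold in 12 of 24 alternatives, not with a replicate block. The AGO134 effect on miR-484 at day 14 minus that at day 7 was 0.50 (edgeR adjusted p = 0.0407), and it was past the threshold in 11 of 22 alternatives, not with a replicate block. The AGO2 effect on miR-320-3p in Th2 cells minus the AGO134 effect at day 7 was -1.27 (edgeR adjusted p = 0.000174), and it was past the threshold in all 22 alternatives. These fits take 1 estimate of the spread of a miRNA over both experiments, and so may understate the spread between the AGO2 libraries.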

How the results depend on the processing

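In the AGO134 experiment scaling moved the counts of calls in knockout against WT cells. The median log2 fold change of all miRNAs, -0.050 in naive, -0.015 in day 7 and 0.0067 in day 14 AGO134 knockout against WT cells, was -0.33, -0.31 and -0.15 with library size only and -0.77, -0.63 and -0.44 with STD scaling. For AGO2 knockout against Cre Th2 cells it was 0.055 as reported and -1.59 with STD scaling. The calls in either direction split into 33 higher and 22 lower at day 7, against 4 and 43 with library size only and 1 and 128 with STD scaling. At day 14 they split into 34 and 41, against 24 and 48 under the size factors of DESeq2, 22 and 54 with library size only and 2 and 72 with STD scaling.

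Members called in naive AGO134 knockout cells numbered 2 as reported, 5 with library size only, 6 with STD scaling and 1 with the naive groups alone, where miR-1839-3p fell under the filter. At day 7 the count of 1 became 2 with library size only, where miR-484 was added as lower, and with DESeq2, where miR-320-3p was added as higher, and 4 with STD scaling; it was 1 to 2 when each library was left out in turn, the 2 without knockout library 1. At day 14 it stayed at 1. For AGO2 knockout the count was 0 in naive cells and 1 with library size only. In Th2 cells it was 1, and, with miR-484 added, 2 under DESeq2 or its size factors, library size only, STD scaling or all locus entries, 3 with no filter or with the Th2 groups alone, where miR-877-5p was added too, and 0 to 2 when each library was left out in turn. With the Th2 groups alone miR-877-5p passed the filter only through the Cre libraries, where it is high. In culture, the 6 members called between day 7 and naive WT cells became 3 with STD scaling and 5 with library size only or no filter, where miR-320-3p lost its call, the 1 between day 14 and day 7 became 0 with library size only or STD scaling, and the 1 in Cre cells became 2 with STD scaling and 0 to 1 when each library was left out in turn. The 1 member whose AGO134 effect differed between day 7 and naive cells became 0 with library size only, STD scaling, no filter or a replicate block, and 0 to 1 when each library was left out in turn. The 1 that differed between day 14 and day 7 became 0 with DESeq2 size factors, STD scaling, no filter, all locus entries or a replicate block, and 0 to 1 when each library was left out in turn. Between AGO2 and AGO134 effects the 1 became 4 with STD scaling and 1 to 2 when each library was left out in turn. The cause of these moves was not tested.

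Over all miRNAs, calls moved by over 1.5 times in these cases: 70 in naive AGO134 knockout cells against 204 with STD scaling, 46 without knockout library 4 and 37 without WT library 1; 55 at day 7 against 129 with STD scaling, 35 with no filter, 24 without knockout library 4 and 34 to 36 without WT library 2, 3 or 4; 9 in naive AGO2 knockout cells against 14 with library size only, 5 with STD scaling, 31 with all locus entries, 5 without knockout library D or G or Cre library B, 4 without Cre library C, 18 without Cre library A and 0 without B and C together; 44 in AGO2 knockout Th2 cells against 69, 76, 79 and 71 with STD scaling, no filter, the groups alone and all locus entries; and 55 in Cre cells against 84 with STD scaling. For effects at day 7 against naive cells the 9 calls became 3 with library size only, 1 with STD scaling, 14 with DESeq2 and 5 with the replicate block, 3 to 5 without any 1 of day 7 WT library 3 or 4, naive knockout library 2 or naive WT library 1 or 2, and 15 without naive WT library 3; for day 14 against day 7 the 46 became 15 with STD scaling and 30 without day 14 WT library 3.

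Signs turned mainly in values near 0 that were not called. miR-320-3p in naive AGO134 knockout cells was 0.074 with DESeq2 size factors, 0.081 with DESeq2 and -0.070 to 0.14 when each library was left out; at day 7 it was -0.0764 with library size only and -0.40 with STD scaling; at day 14 it was -0.0558, -0.35 and, with all locus entries, -0.00182. miR-877-3p at day 7 was -0.16 with library size only, -0.47 with STD scaling and -0.25 to 0.31 when each library was left out, and at day 14 it was 0.098 with the replicate block and -0.26 to 0.26 when each library was left out. miR-1839-5p was -0.16 to 0.080 at day 7 when each library was left out and -0.13 at day 14 with STD scaling, where miR-484 was -0.20. In Cre cells miR-484 was -0.47 without naive libraries B and C and -0.37 to 7.25 when each library was left out, and in naive AGO2 knockout cells -1.18 to 6.38; the highest values set a group against 0 counts and are no bound. Called values that turned were those of miR-320-3p and miR-484 between day 7 and naive WT cells, at 0.18 and 0.0086 with STD scaling.

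Libraries of the same number deviated together weakly or not at all. For 10 pairs across genotypes r ran from -0.092 to 0.15, with a median of 0.069 and 2 over 0.1. For 20 pairs of 1 genotype across stages of the AGO134 experiment it ran from -0.31 to 0.10, with a median of -0.0035. These r were not tested against libraries of unlike number. A replicate block in the fit left the members called at 2, 1 and 1 at the 3 AGO134 stages and ended the calls of both differences of effects. Depth limits the AGO2 experiment, where 4 of the 6 members fell under the count filter over both stages.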
